A study of Mus musculus with 23 samples.

Results

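The sites described here are tall p65 binding sites that were listed in both wild type and NCoR knockout macrophages after 1 h of Kdo2-Lipid A (KLA) and had no untreated p65 peak close by. A site is a wild type KLA peak with a height of 100 or more, in tags per 10000000 tags of the library, that overlapped a knockout KLA peak by 1 bp or more. No untreated peak centre of either genotype lay within 1000 bp of its own centre. The rule found 3069 sites among the 30021 wild type KLA peaks, or 10.2%, and among 58278 peaks in all 5 lists of the series. It used the wild type KLA height, the presence of a knockout KLA peak and the absence of untreated peaks, so these values describe the sites and support nothing.

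p65 (RelA) is a transactivating NF-κB subunit, which inhibitors hold in the cytoplasm of resting macrophages. Lipid A engages the receptor TLR4, the inhibitors are degraded, and p65 enters the nucleus and binds promoters and enhancers of inflammatory genes, many of them in chromatin already opened by macrophage factors such as PU.1. NCoR is a corepressor that does not bind DNA itself, and brings histone deacetylase activity to nuclear receptors and other factors, among them the oxysterol receptor LXRβ.

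Primary peritoneal macrophages were elicited with thioglycollate in male mice 6 to 8 weeks old. The wild type strain is labelled NCoR fl/fl Lys M-Cre -/- and the knockout strain NCoR fl/fl Lys M-Cre +/-, both on C57BL/6. Both genotypes thus carry floxed NCoR alleles and differ in a Cre driven from the lysozyme M locus, which acts in myeloid cells. Each genotype was studied untreated and with 100 ng/ml KLA for 1 h, and chromatin was precipitated with a p65 antibody. LXRβ peaks came from another cell, the mouse macrophage line RAW264.7 with tagged LXRβ, given 1 µM GW3965, an LXR agonist, for 2 h. Every group was 1 library, so differences between libraries had no replicate check, and no test between groups was run. The sources used here do not say whether a library pooled several mice, and these lists do not measure NCoR.

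The p65 libraries were shallow, with 777228 to 786121 tags untreated and 1673506 to 2120392 after KLA, against 11758634 for LXRβ. In the wild type KLA library 1 tag was worth a height of 4.72, and in the knockout KLA library 5.98. The sites rested on 22 to 144 tags in wild type and 5 to 113 tags in knockout cells. Intervals at 95% are exact Poisson for heights, exact Clopper-Pearson for shares and from order statistics for medians. They cover counting error only, and neighbouring sites are not independent. Positions are on mouse build mm9, and no gene annotation or genome of that build was used, so sites carry no gene name or sequence.

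Of the 30021 wild type KLA peaks, 54% overlapped a knockout KLA peak, from 23.8% under 30 in height to 100% at 300 or more. The knockout KLA library was shallower, with a lowest listed height of 29.9 against 18.9. Its list lost 1902 candidates to an input filter, and the wild type KLA list was not filtered by input. Of the wild type KLA peaks, 5.96% had an untreated peak centre within 1000 bp, and 3761 (12.5%) reached the height. Of these tall peaks, 81.6% met the whole rule. The untreated lists differed in size, with 702 peaks in wild type and 2227 in knockout cells, holding 0.83% and 2.37% of tags. An untreated peak centre within 1000 bp removed 590 tall peaks, of which 341 lay near a wild type and 391 near a knockout untreated peak, 142 of them near both. Another 102 had no overlapping knockout KLA peak. The lowest height inside the rule was 103.8, or 22 tags, and the highest outside it was 99.0, or 21 tags. A total of 238 sites stood at 103.8, and 289 peaks at 99.0 met every other condition, so the lower edge is 1 tag wide. Just inside it, the sites chr1:6466666-6466798, chr1:34900249-34900381 and chr1:36327482-36327614 had knockout heights of 125.5, 107.6 and 107.6. Just outside it, the peaks chr1:62761672-62761804, chr1:64349508-64349640 and chr1:74112621-74112753 had knockout heights of 131.5, 89.6 and 41.8.

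**Figure D1:**
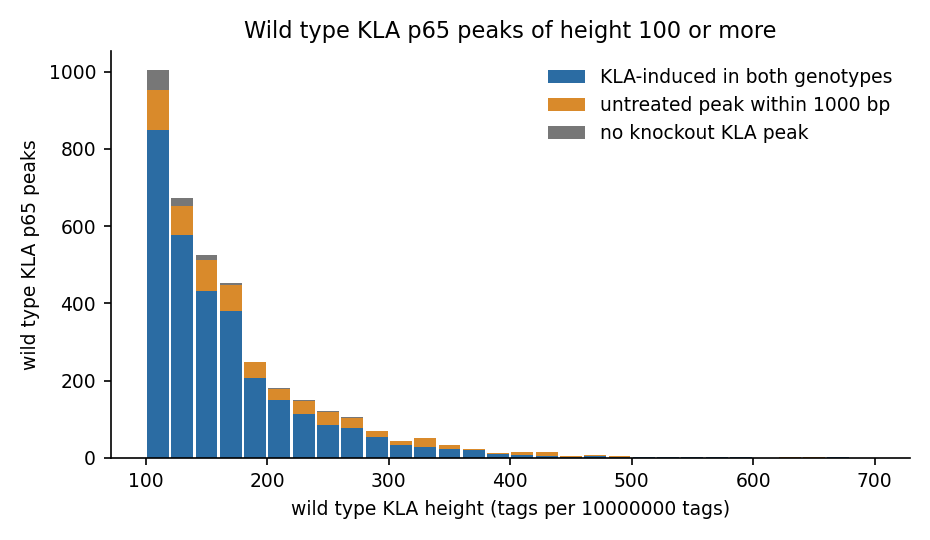
Number of wild type KLA p65 peaks (vertical axis) by wild type KLA height in tags per 10000000 tags (horizontal axis), for the 3761 peaks of height 100 or more. Blue is the 3069 sites of the rule, orange the 590 peaks with an untreated peak within 1000 bp and grey the 102 peaks without a knockout KLA peak; most sites stand near the lower edge, with a median of 141.5.

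The tallest peaks left out for an untreated neighbour were as tall as the tallest sites. They lay at chr17:18037852-18037984 with a height of 650.8, at chr17:13203058-13203190 with 641.4, and at chr13:20878976-20879108 with 636.7. The tallest peaks left out for want of a knockout peak were lower and had a knockout peak close by. At chr5:118803857-118803989 the wild type height was 278.3, and a knockout peak of 191.2 was centred 301 bp away. At chr4:119705153-119705285 it was 250.0, with a knockout peak of 167.3 at 161 bp. At chr6:17714453-17714585 it was 240.5, with a knockout peak of 239.0 at 323 bp. Here another wild type KLA peak of 254.7 was centred 282 bp away. That neighbour was itself a site, listed with a knockout height of 239.0, so the knockout peak need not be a counterpart of the left-out peak.

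The sites held few very tall peaks and many near the edge. The wild type height had a median of 141.5, quartiles of 117.9 and 188.6 and a highest value of 679.1. The knockout height had a median of 131.5, quartiles of 101.6 and 179.3 and a range from 29.9 to 675.2. The sites took 5.05% of all tags of the wild type KLA library and 4.62% of the knockout KLA library, out of 17.57% and 17.66% of tags lying in any peak.

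The first of the tallest sites, at chr19:6945450-6945582, had a height of 679.1 (interval 573 to 800) in wild type and 675.2 (556 to 812) in knockout cells after KLA. The site at chr10:77597969-77598101 had 598.9 (499 to 713) in wild type and 573.6 (465 to 701) in knockout cells. At chr2:167603042-167603174 the heights were 580.1 (482 to 692) and 543.8 (438 to 668). At these 3 sites the genotypes lay within each other's counting intervals, and neither untreated list had a peak nearer than 1497 bp.

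A pair of the tallest sites lay on chromosome 11. The site chr11:51647050-51647182 had a height of 561.2 (465 to 672) in wild type and 555.7 (449 to 681) in knockout cells, and chr11:117807848-117807980 had 561.2 and 567.7 (459 to 694). At chr12:8393577-8393709 the heights were 542.4 (448 to 651) and 567.7, and at chr4:102296836-102296968 they were 532.9 (439 to 641) and 555.7. At chr18:65488447-65488579 they were 504.6 (414 to 610) and 525.8 (422 to 648). All of these again overlapped in their intervals, and the knockout height was slightly above the wild type height at 4 of the 5.

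The other members of the 10 tallest were lower in knockout than in wild type cells, with intervals that still overlapped. At chr17:29531176-29531308 the height was 575.4 (478 to 687) in wild type and 424.3 (331 to 535) in knockout cells, a ratio of 0.737. This site lay close to the edge of the rule, with an untreated wild type peak of 77.2 centred 1121 bp away. At chr19:10052385-10052517 the heights were 504.6 and 430.2 (337 to 542), a ratio of 0.853. The knockout list gave the 10 tallest sites 0.2 to 0.6 scaled input tags. Each of them had 1 to 3 further wild type KLA peaks within 10 kb, the nearest of them 519 to 2222 bp away with heights of 80.2 to 278.3.

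The absence of an untreated peak gives only a lower bound of the rise with KLA. The lowest listed untreated heights, at 5 tags, were 64.3 in wild type and 63.6 in knockout cells. Against these, the bound in wild type cells was 1.61-fold at the lowest site and 10.6-fold at the tallest. It was at least 2-fold at 1913 sites (62.3%) and at least 4-fold at 284 (9.25%), where 7.97% and 1.41% of all wild type KLA peaks are that tall. The wild type bound is the wild type height over a fixed floor, and the rule requires a minimum wild type height. The higher shares among the sites were thus built into the rule. In knockout cells the bound reached 2-fold at 1655 sites (53.9%) and 4-fold at 280 (9.12%), where 10.5% and 1.76% of all knockout KLA peaks are that tall. At 146 sites the knockout KLA height was itself under 63.6, so no rise can be given there. In both genotypes together the bound reached 2-fold at 1385 sites (45.1%) and 4-fold at 185 (6.03%). KLA peaks were 132 bp wide in wild type cells and untreated peaks 102 bp, and per bp the wild type bound reached 2-fold at 1046 sites and 4-fold at 96. Per bp the knockout bound reached 2-fold at 1284 sites and 4-fold at 167, and 300 sites had a knockout KLA height under the lowest untreated one. The bound assumes that no untreated peak was removed by the authors' input filter, which took 84 and 163 candidates, or by their local filter, which took 20 and 18, in wild type and knockout cells. The nearest untreated peak lay between 1012 bp and far beyond, with a median of 99218 bp, and at 191 sites it lay within 5 kb.

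The genotype comparison asked whether p65 height differed with NCoR loss at sites listed after KLA and not in untreated cells. The knockout peak was centred a median of 23 bp from the wild type peak, with quartiles of 10 and 41 bp, and no knockout peak served for more than 1 site. The median distance fell from 40 bp for shared wild type KLA peaks under 30 in height to 18 bp for sites of 300 or more, so the centres lay closer in the taller bands. Heights in the genotypes correlated across the 3069 sites with a Spearman rho of 0.69 and a Pearson r of 0.728 on log2 heights. The sites of a library share its depth, and the lower edge in wild type height narrows the range, so these values are a description.

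The median ratio of knockout to wild type height was 0.898 (interval 0.887 to 0.913), with quartiles of 0.724 and 1.07. The knockout height was above the wild type height at 1069 sites (34.8%). The direction of this median depended on which genotype chose the sites. With sites chosen by a knockout KLA height of 100 or more and the other conditions unchanged, 3345 sites had a median ratio of 1.09 (1.08 to 1.11). With sites chosen by the geometric mean of both heights, 3000 sites had a median of 0.990 (0.979 to 1.00). The wild type and the knockout choice had 2346 sites in common, or 76.4% and 70.1% of each. Knockout peaks were 144 bp wide, and per bp of peak the medians were 0.823, 1.00 and 0.908 in the same order.

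**Figure D2:**
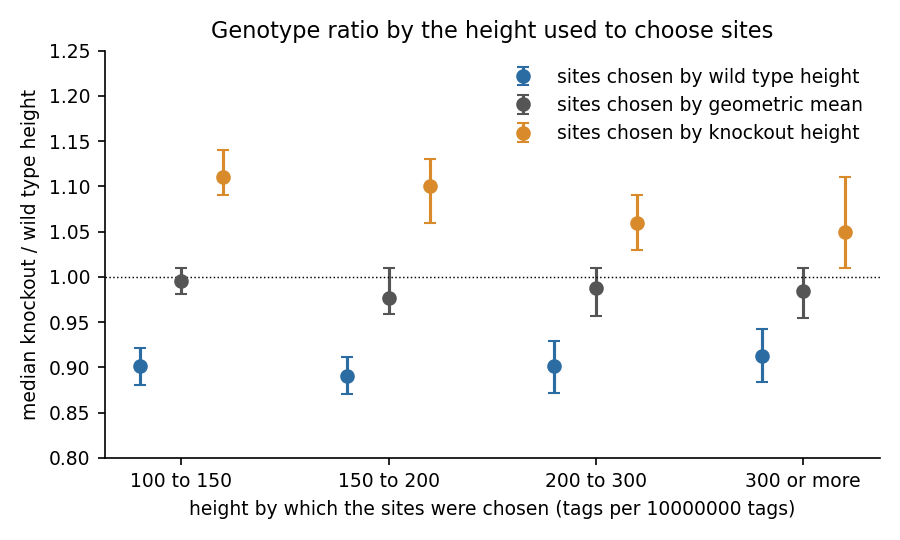
Median ratio of knockout to wild type KLA height (vertical axis) by band of the height that chose the sites, in tags per 10000000 tags (horizontal axis), with bars for the 95% interval from order statistics. Sites chosen by wild type height (blue) lie at 0.891 to 0.913, those by the geometric mean (grey) at 0.977 to 0.995 and those by knockout height (orange) at 1.05 to 1.11.

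By wild type height, the shift below 1 was of like size in every band of height. By wild type height the median ratio was 0.902 at 100 to 150, 0.891 at 150 to 200, 0.902 at 200 to 300 and 0.913 at 300 or more. By the geometric mean it was 0.995 (0.981 to 1.01), 0.977 (0.959 to 1.01), 0.988 (0.957 to 1.01) and 0.984 (0.955 to 1.01), with 1 inside every interval. By knockout height it was 1.11, 1.1, 1.06 and 1.05 in the same bands, so that shift was smaller in the taller ones. Tall peaks with an untreated neighbour had 0.924 (0.898 to 0.943) at 563 shared peaks by wild type height and 0.962 (0.936 to 0.996) by the geometric mean.

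Large differences between genotypes were few. The ratio was 2 or more at 8 sites (0.261%), against 6.28% of all 16203 shared KLA sites, and 0.5 or less at 158 (5.15%), against 2.43%. Of those shared sites 12571 had a wild type height under 100, with 8.03% at 2 or more and 1.77% at 0.5 or less. The lowest listed KLA heights were 18.9 in wild type and 29.9 in knockout cells, so low wild type peaks could not have a low ratio. All shared sites are thus not a like background for tall sites chosen by wild type height. Among sites chosen by the geometric mean the counts were 46 (1.53%) and 39 (1.30%), and among those chosen by knockout height 223 (6.67%) and 10 (0.299%). Per bp of peak the counts of 2 or more and of 0.5 or less were 2 and 243 for the sites, 21 (0.700%) and 80 (2.67%) by the geometric mean and 134 and 29 by knockout height. These counts rest on 1 library a group and moved with the choice of sites and with peak width.

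**Figure D3:**
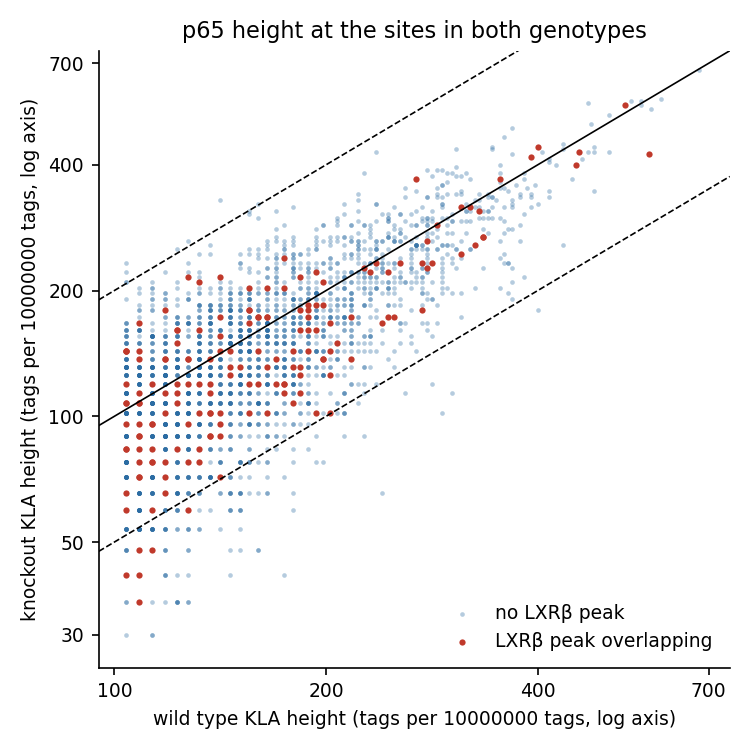
Knockout KLA height (vertical log axis) against wild type KLA height (horizontal log axis), both in tags per 10000000 tags, at the 3069 sites, with red points for the 163 sites that overlap an LXRβ peak. The solid line marks equal heights and the dashed lines ratios of 2 and 0.5; 8 sites lie on or above the upper and 158 on or below the lower dashed line.

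The 5 sites with the highest ratio had wild type heights of 103.8 to 141.5, the latter equal to the median of all sites. The site at chr1:174244466-174244598 had a height of 141.5 (95.5 to 202) in wild type and 328.7 (248 to 428) in knockout cells, a ratio of 2.32. At chr6:17355140-17355272 it was 103.8 (upper bound 157) and 233.0 (166 to 319), and at chr17:57243208-57243340 it was 127.3 (83.9 to 185) and 262.9 (191 to 353). At chr19:40776920-40777052 the heights were 103.8 (upper bound 157) and 221.1 (156 to 305), and at chr16:10976571-10976703 they were 122.6 (80.1 to 180) and 251.0 (181 to 339). The intervals of the genotypes overlapped at the chromosome 19 site and not at the other 4. These sites were picked as the highest ratios of all sites, so separate intervals are no test. The chromosome 16 site had an untreated wild type peak of 257.3 centred 1395 bp away. All 5 had 2 to 6 other wild type KLA peaks within 10 kb.

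At the other end, the site at chr5:118858133-118858265 had 174.5 (123 to 241) in wild type and 41.8 (16.8 to 86.2) in knockout cells, a ratio of 0.240. Its knockout peak was centred 117 bp away. At chrX:166411306-166411438 the height was 240.5 (179 to 316) in wild type and 65.7 (32.8 to 118) in knockout cells. The knockout list gave this site 2.1 scaled input tags, the most of any site, while no input was used for the wild type list. At chr13:73627544-73627676 and at chr17:90053986-90054118 the heights were 113.2 (72.5 to 168) and 29.9 (9.70 to 69.7), and at chr3:51467685-51467817 they were 127.3 and 35.9 (13.2 to 78.0). The intervals did not overlap at any of these 5 sites, which were picked as the lowest ratios of all sites, so separate intervals are no test. The knockout heights of the last 3 rested on 5 or 6 tags, and no other wild type KLA peak lay within 10 kb of any of them.

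By chromosome, the median ratio ran from 0.769 (0.633 to 0.981) at 33 sites on X and 0.811 (0.754 to 0.909) at 117 sites on chromosome 13 to 0.929 (0.884 to 0.973) at 261 sites on chromosome 11. With sites chosen by the geometric mean the values were 1.00 (0.769 to 1.21), 1.03 (0.919 to 1.07) and 1.01 (0.959 to 1.04), so the low values on X and 13 were not seen under that choice. The lowest were then 0.926 (0.871 to 0.979) on chromosome 19 and 0.961 (0.913 to 0.989) on chromosome 3. Chromosome 17 gave most sites per wild type KLA peak, 156 of 1291 (12.1%), and X fewest among the chromosomes with a site, 33 of 528 (6.25%). The sites on X made up 1.08% (0.741 to 1.51) of all sites, while X held 1.76% (1.61 to 1.91) of all wild type KLA peaks. Among those peaks the share on X was 2.34% under a height of 30, 1.1% at 75 to 100 and 1.39% at 100 to 150. At 300 or more it was 0 of 231, which allows up to 1.30% by the limit of 3 counts. The mice were labelled male. On Y and the mitochondrial genome there were 0 of 3069 sites, which allows up to 0.0978% by the same limit, and 15 of all 30021 wild type KLA peaks (0.05%).

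Most sites had other p65 peaks around them. Another wild type KLA peak was centred within 10 kb of 2403 sites (78.3%, 76.8 to 79.7), against 63.3% of all wild type KLA peaks. The share was 60.3% within 5 kb and 22.2% within 1 kb, and the median distance to the nearest other peak was 3330 bp. Peaks under 100 in height had a share of 61.1% (60.5 to 61.7) within 10 kb, and tall peaks with an untreated neighbour one of 80.0% (76.5 to 83.2). Within 1 kb the tall peaks with an untreated neighbour had 31.5% (27.8 to 35.4) and the sites 22.2% (20.7 to 23.7). The share within 10 kb was higher at taller sites, from 76.2% (74.1 to 78.3) at 100 to 150 to 87.6% (81.1 to 92.5) at 300 or more.

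**Figure D4:**
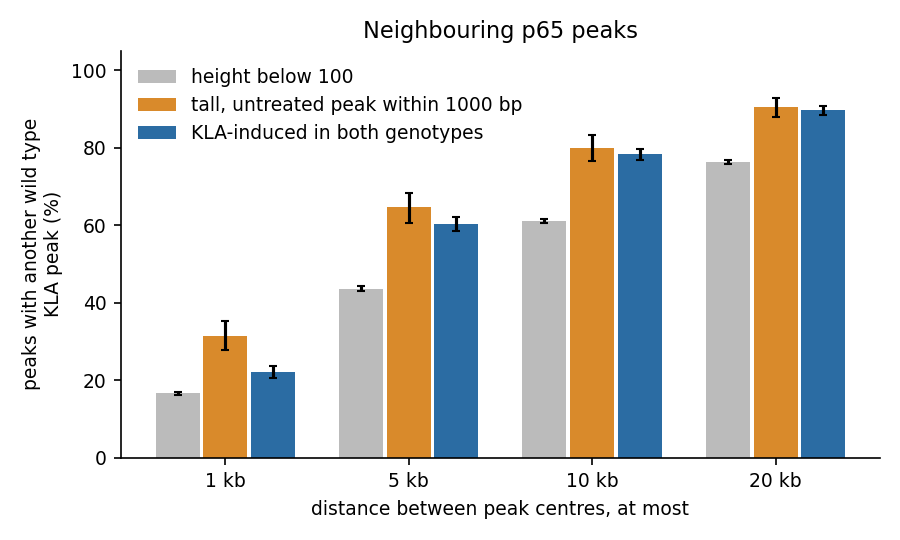
Share of peaks with another wild type KLA p65 peak (vertical axis, percent) within 1, 5, 10 or 20 kb between centres (horizontal axis), with bars for the exact 95% interval. The sites (blue) stand at 22.2, 60.3, 78.3 and 89.6%, peaks below a height of 100 (grey) at 16.7, 43.6, 61.1 and 76.2%, and tall peaks with an untreated neighbour (orange) at 31.5, 64.6, 80.0 and 90.5%.

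The sites themselves formed short runs. With neighbouring sites joined over gaps of at most 10 kb, 951 sites (31.0%) fell into 407 runs, of which 316 held 2 sites, 65 held 3 and 2 held 7, and 2118 sites stood alone. Of the windows of 100 kb with any site, 1468 held 1 and 11 held 7 or more. The fullest, on chromosome 11 from 54700001, held 9 sites among 14 wild type and 11 knockout KLA peaks, with 1 untreated peak in each genotype. Its sites had wild type heights of 108.5 to 292.4, knockout heights of 119.5 to 388.4 and ratios of 0.680 to 1.48. The windows from 109200001 of chromosome 11 and from 103400001 of chromosome 14 held 8 each, with no untreated peak. Their ratios ran from 0.563 to 1.44 and from 0.461 to 1.13, so sites of 1 window differed in both directions. Over the 951 sites with another site within 10 kb, the ratio of a site and that of its nearest neighbouring site correlated weakly, with a Spearman rho of 0.176, and many pairs enter both ways.

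The authors' own measures of peak quality were read at the sites. The fold over the surrounding 10000 bp, as the authors gave it, had a median of 38.2 for wild type peaks and quartiles of 23.6 and 58.9, where 4-fold was required. Peaks under 100 in height had a median of 24.9, but the height enters this fold. In the knockout list the median of the same sites was 33.1. The authors' focus ratio, the share of tags on the side of the centre that their strand predicts, had a median of 0.776 for wild type peaks and 0.767 for their knockout partners, and 0.750 for wild type peaks under 100 in height. Scaled input tags in the knockout list had a median of 0.2 and reached 1 or more at 12 sites (0.391%). Of all 16203 shared wild type KLA peaks 93 had that many, and of the 563 shared tall peaks with an untreated neighbour 27 did.

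NCoR is a corepressor of LXR target genes, so the sites were also compared with LXRβ binding. This readout was not used by the rule, but came from other cells, so overlap means a shared position and not binding in the same cell. An LXRβ peak overlapped 163 of the 3069 sites (5.31%, 4.54 to 6.16), against 3.87% of all wild type KLA peaks and 7.37% (6.55 to 8.25) of all 3761 tall ones, sites included. Among the 590 tall peaks with an untreated neighbour it overlapped 107 (18.1%, 15.1 to 21.5). The latter share was 14.6% (9.98 to 20.3) where only wild type, 16.9% (12.4 to 22.1) where only knockout and 25.4% (18.4 to 33.3) where both untreated lists had the neighbour. Without peaks of 1 or more scaled input tags it was 18.5%.

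The gap between these sets was also seen within bands of height. At 100 to 150 an LXRβ peak overlapped 4.97% of the sites (3.97 to 6.13) and 16.1% of peaks with an untreated neighbour (11.4 to 21.6). At 150 to 200 the shares were 5.65% (4.15 to 7.49) and 15.6% (10.2 to 22.5), and at 200 to 300 they were 4.60% (2.91 to 6.89) and 23.7% (16.9 to 31.7). At 300 or more they were 9.66% (5.38 to 15.7) and 18.6% (11.0 to 28.4), and only in this band did the intervals overlap. Weighted to the heights of the peaks with an untreated neighbour, the share of the sites was 5.74%. The difference between the sets was not tested, since peaks are not replicates.

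**Figure D5:**
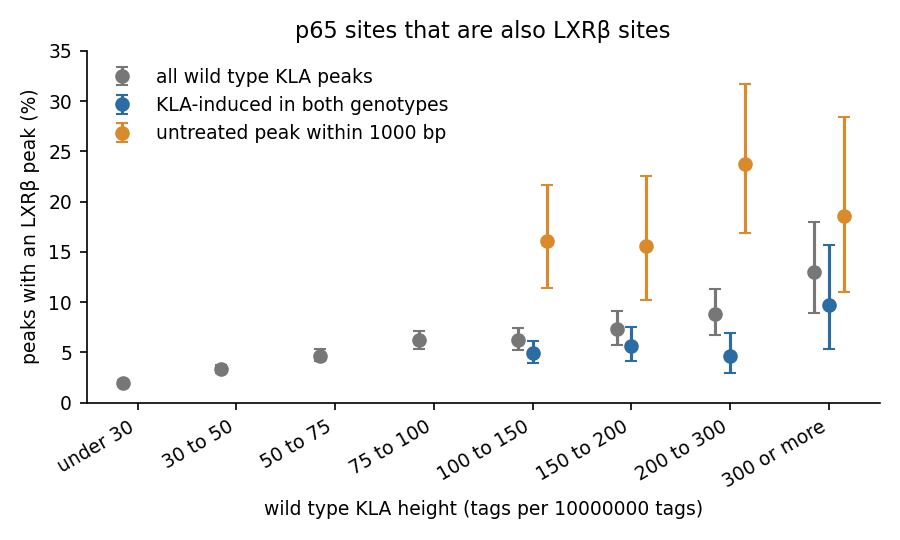
Share of wild type KLA p65 peaks that overlap an LXRβ peak (vertical axis, percent) by wild type KLA height in tags per 10000000 tags (horizontal axis), with bars for the exact 95% interval. All peaks (grey) go from 1.93% under 30 to 13.0% at 300 or more, the sites (blue) lie at 4.60 to 9.66% and tall peaks with an untreated neighbour (orange) at 15.6 to 23.7%.

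The LXRβ peaks at the sites were not tall. Their median height was 10.9 (10.0 to 11.8), equal to the median of all 2743 LXRβ peaks, and the highest was 91.9. They made up 5.94% of the LXRβ list. The LXRβ centre lay a median of 48 bp from the p65 centre, and within 50 bp at 86 of 163 sites. The tallest p65 sites with LXRβ were chr17:29531176-29531308 and chr4:102296836-102296968, described above, with LXRβ heights of 9.1 and 10.0. The next were at chr2:26881135-26881267, with p65 heights of 457.5 in wild type and 430.2 in knockout cells and an LXRβ height of 8.2, and at chr11:59354873-59355005, with 452.7, 400.4 and 12.7. At chr17:88511779-88511911 they were 400.9, 442.2 and 10.0. An LXRβ height of 8.2 is the lowest in that list, and 4 of these 5 LXRβ heights were below its median of 10.9.

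The genotype ratio at the 163 sites with LXRβ had a median of 0.858 (0.806 to 0.919), and at the 2906 others 0.901 (0.887 to 0.913). By the geometric mean the medians were 0.951 (0.884 to 1.00) at 155 sites with LXRβ and 0.992 (0.979 to 1.00) at 2845 others, so the intervals overlapped under both choices. Sites with no other wild type KLA peak within 10 kb had a median ratio of 0.859 (0.829 to 0.892) at 666 sites, and those with one 0.909 (0.895 to 0.921) at 2403. The intervals of these medians did not overlap. By the geometric mean these medians were 0.977 (0.956 to 0.995) at 622 sites and 0.995 (0.981 to 1.01) at 2378, and their intervals overlapped. These comparisons by the geometric mean were chosen after seeing the data.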

How the data were processed

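The submitters' processing notes name Bowtie 0.12.7, HOMER and build mm9. Each library's peaks came from findPeaks, factor style, per the file headers, with a false discovery rate threshold of 0.001 and at most 1 tag counted per bp. Per the file headers, the wild type KLA call used no input and a genome size of 2000000000, and the other p65 lists with a wild type input and 4000000000. Heights are the deposited signal, the authors' normalized tag count per 10000000 tags. The deposited fold over local signal is a ratio, and the deposited focus ratio a fraction. The deposited findPeaks score differed from the tags behind the signal at 1974 of 3069 sites in the wild type KLA list, on average 1.03 times as high. The authors' deposited p-values were not used.

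Lists were compared with scipy 1.17.1, pandas 2.3.3 and numpy 2.4.6 in Python 3.11.15. Where several knockout peaks overlapped, the one centred closest gave the height. The code was checked on simulated lists and gave the same overlaps as bedtools 2.31.1. Sites named are the 10 tallest, the 5 with the highest and the 5 with the lowest ratio, the 5 tallest with LXRβ, the 3 fullest windows of 100 kb, and edges of the rule. The members and comparisons were chosen with earlier results of these data known. The other 18 samples of the series were not analysed here.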

Additional observations from a re-analysis of the deposited data

How the results depend on the processing

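No paired analysis was possible because each group was 1 library, and for the same reason no library could be left out. The shares of sites with sequence motifs were not run, since no genome of the files' build was used. The number of sites was 2789 to 3298 under other overlaps, distances and inputs and with heights from the score, and fell with a height of 150 (1419) or 200 (623), by construction. The median genotype ratio of 0.898 became 0.823 per bp, 0.873 with heights from the score, 0.990 by the geometric mean and 1.09, the other direction, when knockout height chose the sites. The 8 sites with a ratio of 2 or more became 2 per bp and 4 from the score, and the 158 of 0.5 or less became 243 per bp. The cause of these moves beyond width and choice was not tested. The LXRβ share of 5.31% was 7.04% for centres at most 500 bp apart, 3.26% for a reciprocal overlap of 50%, 3.06% with the upper part of the LXRβ list and 4.40% with LXRβ peaks under 2 scaled input tags. For tall peaks with an untreated neighbour the same alternatives, chosen after seeing the data, gave 22.2%, 12.2%, 10.2% and 14.2%, each above that of the sites. No LXRβ peak had under 1 scaled input tag, so that filter gave no value. A neighbour was found at 60.3% within 5 kb, 89.6% within 20 kb and 72.5% with knockout neighbours. The bound on the wild type rise, without counting error, reached 2-fold at 1046 sites per bp in place of 1913. In the knockout list the fold over local signal was 33.1 in place of 38.2 and the focus ratio 0.767 in place of 0.776. Untreated heights below 64.3 in wild type and 63.6 in knockout cells could not be listed.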
